A study of Mus musculus with 25 samples.

Results

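The genes described here are the Myc, Max and Mxd network, the transcription factors that pair through Max or Mlx to turn growth genes up or down. They were chosen by name as 10 genes: the activators Myc, Mycn and Mycl, the Myc paralog Bmyc, the shared partners Max and Mlx, and the repressors Mxd1, Mxi1, Mxd4 and Mnt. Of these, 9 were among the 23116 genes listed in the expression table, and Mycl was not analysed here. The measurement was RNA-seq of sorted HSLAM cells (LSK+ CD150+ CD48-), the bone marrow gate enriched for hematopoietic stem cells, in adult male C57BL/6 mice 8 to 12 weeks old. Mice of both genotypes were Znf143 f/f. The 3 WT libraries came from animals without the tamoxifen-inducible Cre (Rosa26ERT2-Cre-) and the 3 KO libraries from littermates with it (Rosa26ERT2-Cre+). Both carried the floxed alleles and both received tamoxifen by i.p. injection for 10 days. Cre is expressed from the Rosa26 locus in all tissues and only KO mice carried it, so effects of the deletion, of Cre, and of deletion in cells outside the gate cannot be told apart. GEO's labels write the mutant genotype as CTCF KO, whereas the study describes a deletion of Znf143.

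As background, Myc, Mycn and Mycl bind DNA as dimers with Max at the E-box CACGTG and activate genes of ribosome assembly, metabolism and cell growth. Mxd1, Mxi1, Mxd4 and Mnt bind the same element, also with Max, and recruit the Sin3 histone deacetylase complex to silence it, while Mlx is a Max-like partner for Mxd1, Mxd4, Mnt and the glucose-sensing factors Mlxip and Mlxipl. In hematopoietic stem cells the Myc genes are known for their part in the choice between self-renewal and differentiation.

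The 6 libraries held between 38643255 and 57895793 fragments on genes. Levels are given as FPKM (fragments scaled to gene length and library size), rescaled here by size factors, because the deposited FPKM of KO 3 had been divided by the library size of KO 2 and were 1.20 times too high relative to its own. Zfp143, the mouse symbol of the deleted gene, stood at 3.0, 4.32 and 3.57 FPKM in WT 1 to 3 and at 0.151, 0.290 and 0.264 in KO 1 to 3, a log2 fold change of -3.49 ± 0.24 (SE; limma adjusted p = 0.000996), while Ctcf had a log2 fold change of -0.13 ± 0.10 (adjusted p = 0.468). Across genes, WT 1 and WT 3 were close to each other, as were KO 2 and KO 3: the median chi-square of a gene's fragments was 1.26 and 1.38, against 0.455 from sampling alone and 10.5 to 19.5 for the other 13 pairs of libraries. These pairs differed by more than sampling noise and were counted as separate samples, but WT 2 and KO 1 stand apart, so the calls of members and of list genes are also given with the close pairs averaged, which leaves 2 against 2. Zfp143 kept its call there (adjusted p = 0.0336). Leaving out WT 2 leaves WT with its close pair alone, and leaving out KO 1 does so for KO. In those fits the spread within that genotype comes only from libraries close to each other. The mice were littermates, described as 3 pairs, but the sources do not say which libraries form a pair, and p-values measure the spread between these libraries.

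Stem cell markers were present in both genotypes: 1 of 9 was higher in KO (Ly6a, the Sca-1 antigen) and 1 was lower (Mecom, a stem cell transcription factor), while 7 of the 9 had a negative log2 fold change (median -0.41). Their summed level was 466 to 524 FPKM in WT and 738 to 785 in KO, and without Ly6a 233 to 243 and 161 to 213. Of the 7 markers of cells outside the gate, Cd8a was not analysed, Cd3e and Ly6g stayed under the filter on low values and Itgam reached 0.354 FPKM at most. Cd48 and Flt3, a receptor of multipotent progenitors, were called higher in KO: Cd48 stood at 9.32 to 10.8 FPKM in WT and at 19.1 to 19.9 in KO, and Flt3 at 4.85 to 5.26 and at 15.2 to 15.6. The summed level of this list was 14.4 to 16.1 FPKM in WT and 35.1 to 35.5 in KO. Of 9 myeloid markers 5 were higher in KO, with the list's sum at 747 to 807 FPKM in WT and 675 to 829 in KO. Most of that sum was Lyz2 (means of 539 FPKM in WT and 414 in KO) and Prtn3 (182 and 187), neither called. The called ones were Elane (means of 0.435 and 7.69), Ctsg (0.125 and 2.98), Csf1r (0.00625 and 0.209), Ngp (1.39 and 4.84) and S100a8 (24.9 and 63.0). Elane, Ctsg and Csf1r thus lay at very low levels in WT. Of 7 lymphoid markers 3 were tested, and of these Dntt was called, higher in KO (sum 41.9 to 50.2 and 47.6 to 53.1 FPKM). Dntt had means of 0.204 FPKM in WT and 7.32 in KO, and Cd79b, not called, made up most of the sum (42.5 and 41.1). Of 7 megakaryocyte markers none was called (4 at an unadjusted p under 0.05, 1 called by voom, sum 538 to 621 and 676 to 1001 FPKM). The log2 fold change was positive for 6 of the 7 (median 0.62), and 2 were called without WT 2 and 1 without KO 1. One of 8 erythroid markers, Hbb-bt, was lower in KO; the list's sum was 69.6 to 236 FPKM in WT and 64.6 to 69.5 in KO, with Car1 at 138 FPKM in WT 2. None of 11 cycling markers was called (1 at an unadjusted p under 0.05, 0 by voom, 2 without KO 1, sum 417 to 438 and 460 to 472 FPKM). With the close pairs averaged, 1 of the 11 called markers, Flt3, kept its call (adjusted p = 0.0414). In bulk RNA, fewer cells of a type and less RNA per cell cannot be told apart, and the part of these marker differences in the results below was not tested.

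Transcripts of the Myc side were far more abundant than those of the repressors. In WT the order by mean FPKM was Myc, Mycn, Bmyc, Mlx, Max, Mxi1, Mxd1, Mxd4 and Mnt, from 115 FPKM for Myc to 3.46 for Mnt, and the same order held for the means in KO, from 98.7 to 2.58. Neighbours whose WT libraries overlapped were Mycn and Bmyc, Mlx and Max, Mxd1 and Mxd4, and Mxd4 and Mnt. In KO only Mlx and Max, and Mxd1 and Mxd4, still overlapped.

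**Figure D1:**
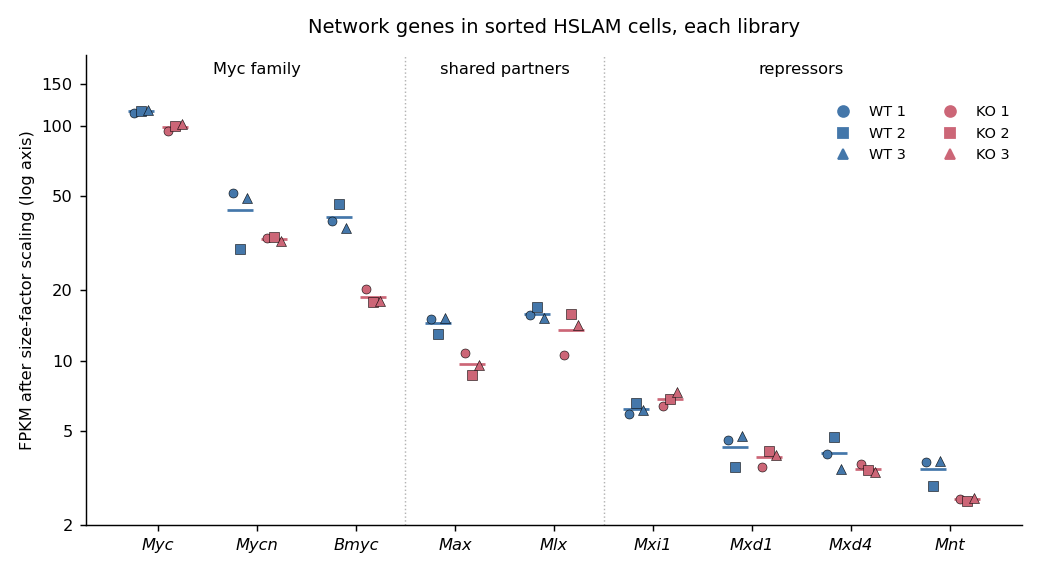
FPKM after size-factor scaling (log axis) of the 9 listed network genes in each library; WT in blue, KO in red, the symbol gives the replicate number and the bar the mean of 3 libraries. Myc lies near 100 FPKM and the 4 repressors below 8 in every library, and for Myc, Bmyc, Max and Mnt every KO point lies below every WT point.

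Of the 9 tested members 2 were called at an adjusted p under 0.05, Bmyc and Max, and both were lower in KO. Over all 19221 genes tested 6.00% were called, 3.0% as lower. The log2 fold change was negative for 8 of the 9 members and for 9485 of the 19221 genes tested, with medians of -0.25 and 0.01. For 4 members (Myc, Bmyc, Max and Mnt) every KO library lay below every WT library, a pattern that 15.3% of all tested genes had.

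Myc, the main activator of the family, is a gene on chromosome 15 (chr15:61985391-61990374, plus strand, GRCm38). It stood at 113, 115 and 117 FPKM in WT 1 to 3 and at 94.6, 99.6 and 102 in KO 1 to 3. The KO libraries were thus all lower, but by a small amount, and the log2 fold change of -0.22 ± 0.08 (SE; 95% interval -0.40 to -0.04) did not pass the test (adjusted p = 0.145). Each value rests on 11687 to 16568 fragments.

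Mycn, which encodes the N-Myc activator (chr12:12936093-12941914, minus strand), stood at 51.9, 29.9 and 49.3 FPKM in WT and at 33.3, 33.6 and 32.2 in KO. WT 2 lay below all KO libraries while WT 1 and WT 3 lay above them, so the groups overlapped and the log2 fold change of -0.36 ± 0.21 did not pass (adjusted p = 0.344). Without WT 2 the log2 fold change was -0.61 with an adjusted p of 0.0106. That fit leaves only the close pair WT 1 and WT 3 in WT, and its SE was 0.07 against 0.21. With the close pairs averaged the log2 fold change was -0.23 with an adjusted p of 0.855.

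Bmyc encodes a short protein that resembles the amino-terminal part of Myc and lacks its DNA-binding region. It is a gene of 1 exon at chr2:25706739-25707721 (plus strand). Its level was 39.2, 46.5 and 36.7 FPKM in WT 1 to 3 and 20.1, 17.7 and 17.9 in KO 1 to 3. All KO libraries lay below all WT libraries, and the mean in KO was 45.5% of that in WT. The log2 fold change was -1.13 ± 0.11 (SE; 95% interval -1.40 to -0.86; adjusted p = 0.0045), from 879 to 2306 fragments per library. Bmyc was called under 16 of 17 alternatives and not with the close pairs averaged, where its log2 fold change was -1.15 and its adjusted p 0.0997.

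The Bmyc exon shares 617 bases, 62.8% of its length, with exons of the antisense gene A230005M16Rik on the opposite strand. The library kit does not keep the strand, so reads from the gene and its antisense partner cannot be told apart in that stretch. The antisense gene itself was listed with 0, 24 and 1 fragments in WT 1 to 3 and with 0 in every KO library. The study's methods do not state how fragments that fall on both genes were counted. FPKM of Bmyc are taken over its full length of 983 bases. If fragments of the shared stretch were left out, its level beside other genes is understated, which was not tested. Between Bmyc and Myc transcripts the longest identical run was 23 bases, shorter than the reads.

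Max is the partner that Myc proteins and Mxd proteins both need to bind DNA (chr12:76937269-76962201, minus strand). It stood at 15.1, 13.0 and 15.2 FPKM in WT 1 to 3 and at 10.7, 8.71 and 9.55 in KO 1 to 3. Again no KO library reached the WT range, and the KO mean was 67.0% of the WT mean. The log2 fold change was -0.57 ± 0.11 (95% interval -0.85 to -0.30; adjusted p = 0.0373), and it stayed negative under all 17 alternatives, from -0.65 to -0.46.

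The call of Max lay close to the threshold. It held under 7 of the 17 alternatives, with adjusted p-values from 0.0236 to 0.456 over all of them. It was lost without WT 1 (adjusted p = 0.142), without WT 3 (0.158), without KO 2 (0.125) and without KO 3 (0.162), with the FPKM as deposited (0.198), and with the close pairs averaged (0.456).

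Mlx encodes the other partner, which resembles Max but does not pair with Myc (chr11:101087277-101092207, plus strand). Its level was 15.6, 16.8 and 15.1 FPKM in WT and 10.6, 15.7 and 14.2 in KO. KO 1 alone lay well below the WT range and KO 2 lay inside it, and the log2 fold change of -0.25 ± 0.15 did not pass (adjusted p = 0.382). Mlx shares 385 exon bases, 19.3% of its exons, with the antisense neighbour Psmc3ip, which stood at 24.1 to 25.4 FPKM in WT and 26.5 to 29.8 in KO. As for Bmyc, how fragments of the shared stretch were counted is not stated, so the level of Mlx may be understated.

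**Figure D2:**
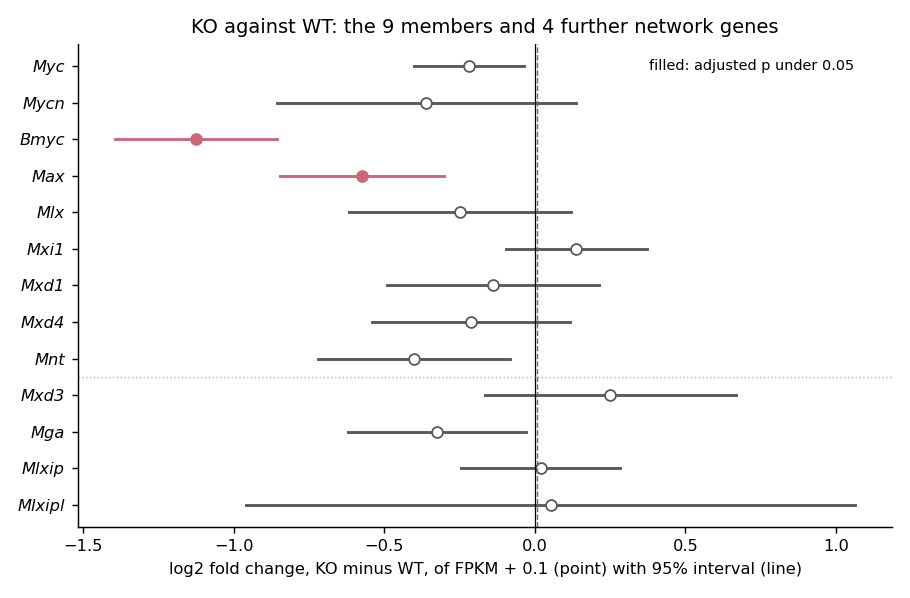
Log2 fold change (KO minus WT, of FPKM + 0.1) with its 95% interval for the 9 members (above the dotted line) and 4 further network genes; filled red points passed an adjusted p of 0.05, and the dashed line is the median of all genes tested. Bmyc at -1.13 and Max at -0.57 are the filled points, and Mxi1 at 0.14 is the member to the right of zero.

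None of the 4 repressors passed the test by limma or by voom, and 1 had an unadjusted p under 0.05. Mnt, a broadly expressed repressor that limits Myc (chr11:74830920-74845725, plus strand), stood at 3.72, 2.92 and 3.75 FPKM in WT and at 2.59, 2.54 and 2.61 in KO. Every KO library was below every WT library, WT 2 being the nearest, and the log2 fold change was -0.40 ± 0.13 (adjusted p = 0.13). Without WT 2, a fit that leaves only the close pair in WT, it was -0.52 and passed with an adjusted p of 0.0289. With the close pairs averaged the adjusted p was 0.727.

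Mxi1, the highest of the 4 repressors in mean FPKM (chr19:53310518-53375810, plus strand), stood at 5.92, 6.59 and 6.18 FPKM in WT and at 6.41, 6.83 and 7.37 in KO. It was the single member with a positive log2 fold change, 0.14 ± 0.10, which did not pass (adjusted p = 0.443) and stayed positive under all 17 alternatives. Here KO 1 lay inside the WT range and the other KO libraries just above it.

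Mxd1, induced when blood cells leave the cycle (chr6:86647042-86669161, minus strand), stood at 4.6, 3.54 and 4.76 FPKM in WT and at 3.51, 4.14 and 3.96 in KO. Mxd4, its close relative (chr5:34173883-34187720, minus strand), stood at 4.02, 4.72 and 3.45 FPKM in WT and at 3.64, 3.42 and 3.34 in KO. In both genes the genotypes overlapped, with WT 2 the lowest WT library for Mxd1 and the highest for Mxd4. Their log2 fold changes were -0.14 ± 0.15 (adjusted p = 0.616) and -0.21 ± 0.14 (adjusted p = 0.401), and the 95% intervals, -0.49 to 0.21 and -0.54 to 0.12, leave room for changes of either sign.

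The balance of activators against repressors was taken in each library as the summed FPKM of Myc and Mycn over that of the 4 repressors, as a description with no test. It was 9.04, 8.15 and 9.14 in WT 1 to 3 and 7.92, 7.87 and 7.75 in KO 1 to 3. The KO libraries lay in a narrow band just under WT 2, and the difference of the mean log2 ratios was -0.16 ± 0.05 (SE, n = 3 per genotype). This SE takes the close libraries as separate samples, and with the close pairs averaged the difference was -0.13. Both sums were lower in KO: the activators went from 145 to 166 FPKM in WT to 128 to 134 in KO, and the repressors from 17.8 to 18.3 to 16.1 to 17.3. The repressor sum holds the 4 members only. Mxd3, a further repressor that is not a member, stood at 7.46 to 9.0 FPKM in WT and 8.63 to 12.8 in KO. That is above each of the 4 in every library, and the sum and balance with Mxd3 were not taken.

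Bmyc, which cannot bind DNA by itself, stands in neither sum. With Bmyc added to the activators the mean log2 ratio differed by -0.30, and with Myc alone over the repressors by -0.11. Among the transcripts of the summed repressors, without Mxd3, Mxi1 made up 32.4% to 37.1% of the FPKM in WT and 39.7% to 42.6% in KO. Mnt went from 16.5% to 20.6% to 15.0% to 16%. Myc made up 68.6% to 79.4% of the activator sum in WT and 74.0% to 76.0% in KO, an overlapping range.

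Myc was also set against Max, its partner, library by library. The ratio of Myc to Max FPKM was 7.49, 8.85 and 7.67 in WT and 8.82, 11.4 and 10.7 in KO. KO 1 lay at the level of WT 2, and KO 2 and KO 3 lay above all WT libraries. The mean log2 difference was 0.36 ± 0.13 (SE, close libraries taken as separate samples). The log2 ratio of Max to Mlx was -0.05, -0.37 and 0.01 in WT and 0.02, -0.85 and -0.58 in KO, where KO 1 was the highest of all libraries and the genotypes overlapped.

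**Figure D3:**
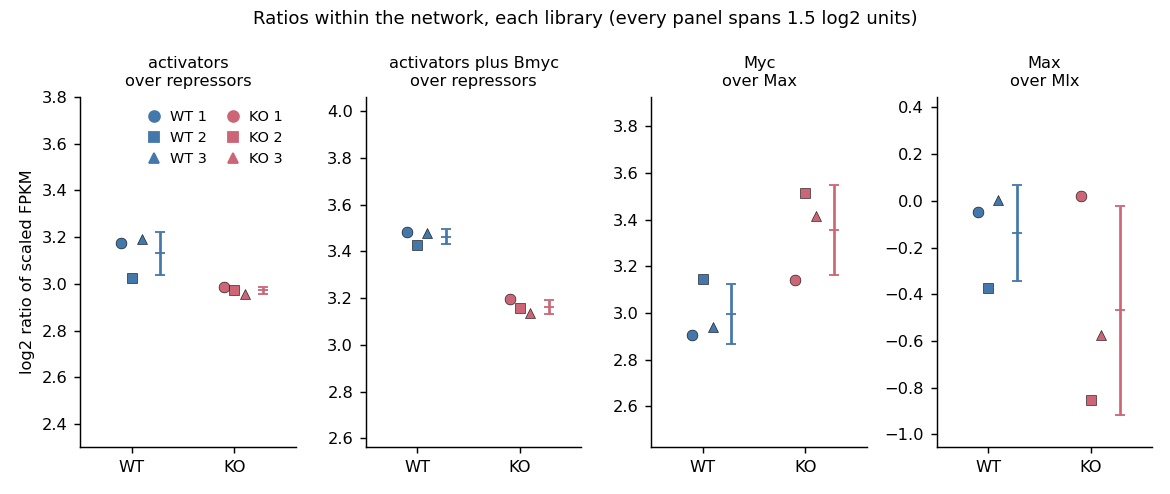
Log2 ratios of scaled FPKM in each library, with the mean and SD of 3 libraries beside the points; every panel spans the same range. The KO points lie below the WT points in both activator panels, by 0.16 and 0.30 on average, and the genotypes overlap for Myc over Max and for Max over Mlx.

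The promoters of Max, Bmyc and Mxi1 are shown because these genes appear in the study's list of direct ZNF143 targets, which was drawn up partly on the expression of these libraries and is not independent of it. Capitals mark ACTACA and TTCCCAG, parts of the element that ZNF143 binds, on either strand. Each stretch ends before the RefSeq transcription start and is written 5′ to 3′ along the gene (RefSeq, GRCm38.p6). The Bmyc stretch lies in the 5′ UTR of the GENCODE transcript, which starts further upstream.
Max, chr12:76962249-76962463, minus strand: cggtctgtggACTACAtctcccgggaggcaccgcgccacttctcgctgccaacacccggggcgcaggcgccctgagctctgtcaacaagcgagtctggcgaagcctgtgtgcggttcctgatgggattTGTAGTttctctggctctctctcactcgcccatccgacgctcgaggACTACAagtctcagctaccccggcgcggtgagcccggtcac
Mxi1, chr19:53329263-53329399, plus strand: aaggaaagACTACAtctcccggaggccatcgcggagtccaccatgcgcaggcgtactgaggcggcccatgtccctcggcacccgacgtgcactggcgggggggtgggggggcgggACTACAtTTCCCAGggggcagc
Bmyc, chr2:25706817-25706846, plus strand: gaagtgagggtCTGGGAAggggagtggttc

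Max held ACTACA 3 times in its window of 300 bases, 250 before the start and 50 after. Mxi1 held it 2 times in the second of its 3 windows, once followed after 1 base by TTCCCAG. Mlx and Mnt held it once each:
Mlx, chr11:101087210-101087239, plus strand: acaccgctcacgACTACAattgcggattgg
Mnt, chr11:74830900-74830923, plus strand: ctgcggccccggTGTAGTagcggg

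Of all 32851 RefSeq promoter windows of this length, 10.3% held ACTACA on either strand, 11.1% TTCCCAG and 7.15% the E-box CACGTG, and by gene, counting all windows of a gene, 11.8%, 12.7% and 8.09% of 27025 genes did. Of the 9 members with a window, 4 held ACTACA (Max, Mlx, Mxi1 and Mnt), 2 held TTCCCAG (Bmyc and Mxi1) and 4 held CACGTG (Max, Mlx, Mxd4 and Mnt). The windows of Mycn, Mycl and Mxd1 held none of the 3, and Myc was not in the promoter table. Of the 2 members called lower, Max held 3 matches of ACTACA and 0 of TTCCCAG, and Bmyc held 0 and 1. Mxi1, with 2 and 1 in its second window, was slightly higher without passing. Whether matches go with the changes was not tested. These are matches of letters and not measured binding.

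Of the 4 further network genes none was called by limma or by voom, and 1, Mga, had an unadjusted p under 0.05. Mga, a Max partner that represses germ cell genes, stood at 3.81, 4.25 and 4.04 FPKM in WT and at 3.65, 2.95 and 3.03 in KO, with a log2 fold change of -0.33 ± 0.12 (adjusted p = 0.173). The repressor Mxd3 stood at 9.0, 7.46 and 8.40 FPKM in WT and at 12.8, 8.65 and 8.63 in KO, with KO 1 the highest library (log2 fold change 0.25 ± 0.17, adjusted p = 0.432). Mlxip and Mlxipl, the glucose-sensing partners of Mlx, had log2 fold changes of 0.02 ± 0.11 and 0.05 ± 0.42, Mlxipl at no more than 53 fragments per library.

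The proteins that work with, degrade or oppose Myc were taken as 3 lists. Of 19 Myc cofactors (histone acetyltransferases, chromatin remodellers and elongation factors) none was called by limma or by voom, 2 had an unadjusted p under 0.05, and the median log2 fold change was -0.14. Hcfc1 of this list was called as lower without WT 2, and Crebbp without KO 1, genes named after their values were seen. Of 18 genes of Myc protein turnover 1 was called: Skp2, a ubiquitin ligase subunit that marks the cell-cycle inhibitor p27 and Myc, stood at 1.71, 2.24 and 1.97 FPKM in WT and at 0.723, 0.930 and 0.936 in KO, a log2 fold change of -1.11 ± 0.18 (adjusted p = 0.0189). The list had a median of -0.02. Skp2 lost its call without WT 1 (adjusted p = 0.0563), WT 3 (0.0963), KO 2 (0.0683) or KO 3 (0.0852), and without WT 2 Plk1, named after its values were seen, was called as lower (-0.38).

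Of 18 Sin3 corepressor genes 1 was lower and 1 higher in KO. Sap30, a core subunit of the complex, stood at 61.5, 71.8 and 64.5 FPKM in WT and at 51.7, 41.1 and 43.9 in KO (log2 fold change -0.54 ± 0.11, adjusted p = 0.0449). Brms1l, another subunit, stood at 4.73, 3.87 and 4.44 FPKM in WT and at 6.19, 6.98 and 7.11 in KO (0.63 ± 0.12, adjusted p = 0.0307). The genotypes did not overlap in either gene, and the median of the list was -0.05. Neither call held without WT 1, WT 3, KO 2 or KO 3, at adjusted p-values from 0.0793 to 0.192, and that of Sap30 was also lost without WT 2 (0.0600). The deacetylase Hdac1 had the lowest log2 fold change of the list, -0.65, with no overlap between genotypes, and just missed the threshold (adjusted p = 0.0568). It passed without WT 2 (-0.81, adjusted p = 0.00637), as did Sin3a (-0.45), while without KO 1 Hdac2 (0.68) and Ing1 (-0.29) passed. These 4 genes were named after their values were seen.

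Of 60 genes that Myc is known to induce (many of them for ribosome assembly), 1 was called, in the direction of higher in KO, where 3.01% of all tested genes were called. This was Rrp12, a ribosome export factor, at 4.56, 4.70 and 4.58 FPKM in WT and 6.52, 8.52 and 8.09 in KO (0.72 ± 0.12, adjusted p = 0.0232), a call lost without WT 1, WT 3, KO 2 or KO 3 (0.0935 to 0.128). Without WT 2, Fbl, Gnl3 and Tbrg4 were called as well, and without KO 1 Mybbp1a, Prmt3, Slc19a1 and Supv3l1, all higher in KO and named after their values were seen. The log2 fold change was positive for 43 of the 60, with a median of 0.09. Of all 19221 genes tested 9736 were positive, with a median of 0.01. The summed level of the list was 3399 to 3785 FPKM in WT and 3605 to 3743 in KO, overlapping ranges.

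Of 9 genes that Myc is known to repress 7 passed the filter on low values, and 1 was called. Cdkn1a, the cell-cycle inhibitor p21, stood at 17.5, 16.3 and 16.7 FPKM in WT and at 32.1, 30 and 29.8 in KO. The KO libraries were all well above the WT range, a log2 fold change of 0.86 ± 0.08 (adjusted p = 0.00251) and a call that held whichever library was left out, and the median of the 7 genes was 0.35. Cdkn1b, named after its values were seen, was called as lower without KO 1 (-0.77). With the close pairs averaged, none of the 5 called genes of these lists kept its call, at adjusted p-values from 0.133 for Cdkn1a to 0.428 for Sap30.

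**Figure D4:**
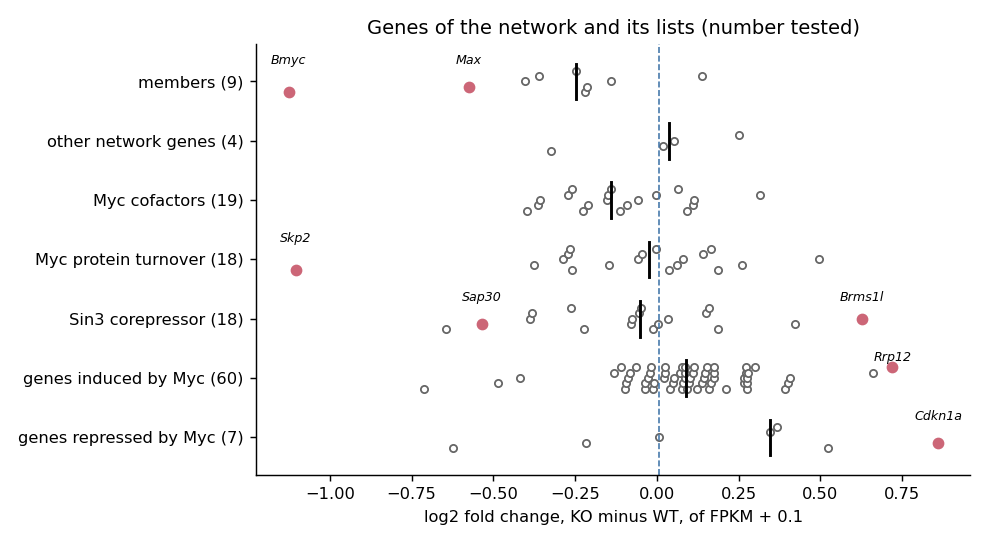
Log2 fold change (KO minus WT, of FPKM + 0.1) of each tested gene in the members and 6 lists; named red points passed an adjusted p of 0.05, black bars are list medians and the dashed line is the median of all genes tested. The members lie furthest to the left by their median, -0.25, and the genes repressed by Myc furthest to the right, 0.35.

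**Figure D5:**
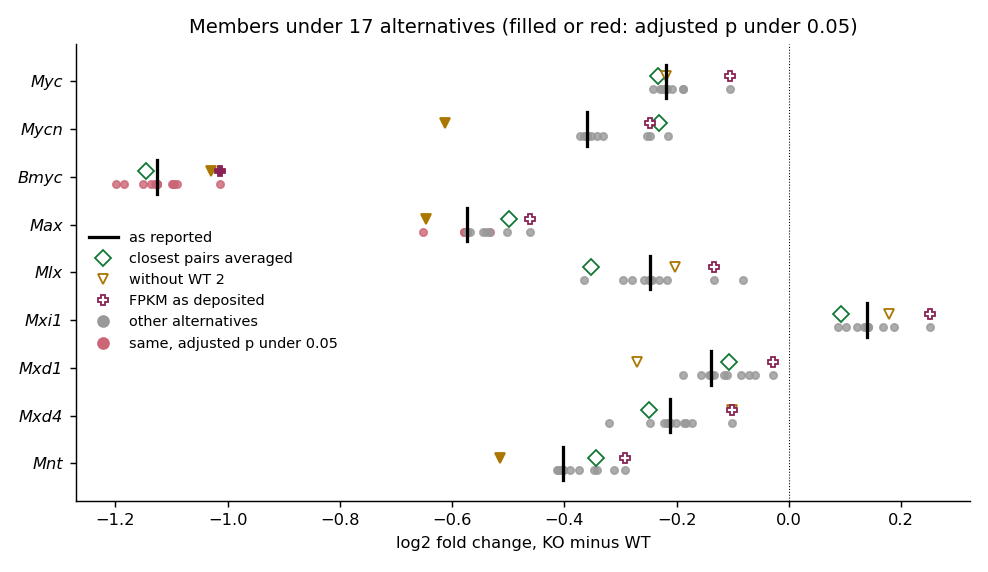
Log2 fold change of each member as reported (black bar) and under the 17 alternatives; filled or red symbols passed an adjusted p of 0.05. No symbol of any member crosses zero, Bmyc is unfilled for the close pairs averaged alone, and Mycn and Mnt are filled without WT 2 alone.

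No member changed direction under any alternative. Myc ranged from -0.24 to -0.10, and Bmyc from -1.20 to -1.01.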

How the data were processed

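RNA was extracted with Trizol from sorted cells, converted to libraries with the SMART Seq v4 Ultra Low Input and Nextera XT kits, pooled and sequenced as paired ends in 1 run, per the study's methods. The authors trimmed reads with TrimGalore (v0.6.0), aligned them with STAR (v2.5.1b_modified) to GRCm38 (mm10), counted them with FeatureCounts (v1.5.2) and normalized them with DESeq2 (v1.22.2). The deposited table gave FPKM per library, gene length and, as signal, the mean normalized count. Its 5 columns of the authors' comparison (fold changes and their errors as score values, and p-values) were not used. ChIP-seq and HiC samples were not analysed here.

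Fragments were recovered from the FPKM: 138677 of 138696 values (99.9863%) lay within 0.05 of a whole number. Each library was divided by its median-of-ratios size factor. limma 3.58.1 (R 4.3.3; lmFit, eBayes with variance trend) was run on log2(FPKM + 0.1) for genes with a mean of at least 0.1 FPKM, with Benjamini-Hochberg adjustment over all genes tested. Fold changes on this scale understate those of low genes. The script was tested on simulated data with libraries drawn independently of each other. That test does not cover the close pairs seen here and says nothing about the calls. The members, lists and alternatives were chosen with earlier results of these data known, and the averaging of close pairs after the libraries had been compared. Named were all members, Zfp143, Ctcf, every further network gene, and list or marker genes called or at the highest level. Overlaps come from GENCODE M21 and promoters from RefSeq; no protein sequences were used. Counting depth gave each member 544 to 16568 fragments per library. Values of some list genes are not reported here.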

Additional observations from a re-analysis of the deposited data

How the results depend on the processing

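All 9 members kept their direction under all 17 alternatives: 2 other scalings, 2 pseudocounts, 2 filters, voom, no variance trend, 2 fits with a replicate block, 6 leaving out 1 library, and the close pairs averaged. The 2 called members became 1 with the FPKM as deposited, with each library divided by its own total, and with no variance trend, and 0 with the close pairs averaged; leaving out 1 library gave 1 to 4. The 5 called list genes became 1 with the FPKM as deposited and 0 with the close pairs averaged; leaving out 1 library gave 1 to 13. The 1154 genes called of all tested became 43 with the close pairs averaged. They became 2269 without WT 2 and 2103 without KO 1, fits that leave a close pair alone in 1 genotype. Leaving out any other library, which breaks up a close pair, gave 224 to 371. The cause of these shifts was not tested, except that averaging leaves 2 samples per genotype. The FPKM as deposited moved the median of all genes to 0.11 from 0.01. Adding Bmyc to the activators moved the difference of the log2 ratio of activators to repressors from -0.16 to -0.30; leaving out 1 library gave -0.21 to -0.13.

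Libraries with the same number did not deviate together (correlations of -0.10, -0.09 and 0.04), so the numbers were not taken to pair the samples. A replicate block left 186 genes called, 1 member (Bmyc) and 1 list gene (Cdkn1a); with the FPKM as deposited and the replicate block the counts were 864, 1 and 1.

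Both members called rest on 3 libraries per genotype of which pairs were unusually alike, which limits every p given. Reads were not counted by molecule, so the depth covers counting error only. Protein levels, and Mycl, were not analysed here.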
